A study of Gelatoporia subvermispora and Trametes versicolor with 24 samples.

Results

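In the white-rot fungus Trametes versicolor, 54 of the 14570 genes listed in the count tables fell to a very low level when the cultures stood still instead of being shaken. They were chosen by their values. The level L of a gene was log2(CPM + 1), where CPM is the usual depth-scaled read count, taken over all reads assigned to genes. A member had a mean L at least 1.8 lower in static than in agitated culture both without and with antioxidants, which is 3.48-fold on the CPM + 1 scale, and a static mean L below 2.6 in both, or 5.06 CPM. Without antioxidants 227 genes met the first limit, with antioxidants 212 did, and 152 did in both. The remaining 98 of the 152 kept a higher static level, and they are called the retained genes below.

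White-rot fungi are basidiomycetes that break down wood, including lignin, with secreted oxidative enzymes. In a shaken flask the mycelium grows as suspended pellets, well mixed and aerated, while in a standing flask it tends to form a mat that oxygen and nutrients reach by diffusion. Culture form and oxygen supply are known to affect which enzymes and small molecules such fungi release. Ascorbic acid is a water-soluble reductant, and α-tocopherol scavenges radicals in membranes and other lipids.

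The series measured RNA in 2 fungi, and the 12 libraries used here are those of T. versicolor, labelled strain FP-10164; across both fungi the tables list 26883 genes. All cultures grew at 28 °C in 250 mL flasks holding 25 mL of Czapek-Dox medium with 15 mM cellobiose, and after 6 days 4-hydroxybenzoate, an aromatic acid related to lignin, was added to every one of them at about 2 mM. The 4 groups of 3 libraries were cultures shaken at 220 rpm without antioxidants, shaken cultures given ascorbic acid at 5 mM with α-tocopherol at 1 mM 30 min before that addition, static cultures without antioxidants, and static cultures given the same antioxidants. Mycelium was harvested 24 h after the 4-hydroxybenzoate, on day 7. No culture went without 4-hydroxybenzoate, so its own effect on the members was not measured. The labels do not say whether replicates came from separate flasks, and the p-values below measure only the spread between these samples. RNA came from whole mycelium, so fewer hyphae expressing a gene and less of its RNA per hypha cannot be told apart.

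Agitated libraries held 5621837 to 6725806 gene reads and static ones 3431340 to 5945365, so that a single read was worth 0.149 to 0.178 CPM in the former and 0.168 to 0.291 CPM in the latter. Reads that were not aligned made up 14.4 to 18.9% in agitated and 14.8 to 22.3% in static libraries. Agitated replicate 1 of each antioxidant state stood farthest from its own group. Its correlations with that group across genes (log2 CPM) were 0.955 to 0.964 without and 0.957 to 0.959 with antioxidants, while replicates 2 and 3 correlated with each other at 0.972 and 0.990. All 3 agitated libraries without antioxidants were closer to an agitated antioxidant library, at 0.973 to 0.982, than to any of their own group. Static libraries correlated within their groups at 0.980 to 0.988. The tables list genes by running number without names or products, so no function is given for any member.

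Together the 54 members supplied a small share of the transcriptome in shaken flasks and a far smaller one in standing flasks. They took 0.199, 0.147 and 0.384% of the gene reads in agitated replicates 1, 2 and 3 without antioxidants, a mean of 0.243% ± 0.125 (SD, n = 3). With antioxidants the agitated libraries gave 0.136, 0.186 and 0.167%, or 0.163% ± 0.0251. In static culture the shares were 0.0133, 0.0157 and 0.0126% without antioxidants and 0.0139, 0.0112 and 0.0125% with them, or 0.0139% ± 0.0016 and 0.0126% ± 0.0013. All 6 static libraries lay close together and far below the 6 agitated ones. Low static means and the fall were required by the rule, so nothing is read from this gap. Among the agitated libraries, which spread widely, replicate 3 without antioxidants was the highest. In reads, the members had 8255 to 23475 per agitated library and 458 to 935 per static library.

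**Figure D1:**
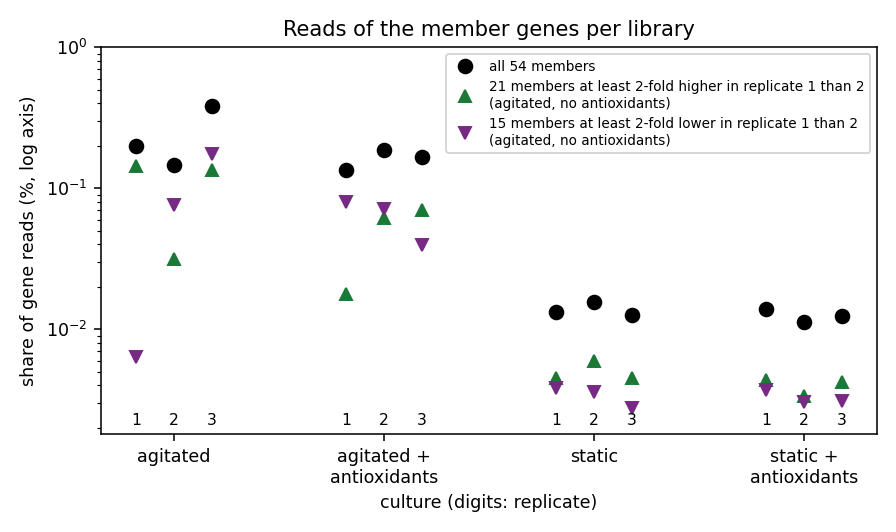
Share of gene reads (%, log axis) taken by the 54 members in each of the 12 libraries, with the replicate number at the bottom. Black points are all members and triangles the 21 and 15 members that were at least 2-fold higher or lower in agitated replicate 1 than in replicate 2 without antioxidants; the static libraries sit at 0.0112 to 0.0157% and the agitated ones at 0.136 to 0.384%.

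The members were low in static culture but not silent. Of the 324 values of 54 members in 6 static libraries, 1 was 0, 12 were at most 3 reads and 133 were under 10 reads, with a median of 11 and a maximum of 40 reads. No member was without reads in all static libraries, and 36 of the 54 (66.7%) exceeded 1 CPM in every one of them. Values this small carry a large counting error, and the 0, for gene954 in static replicate 1 without antioxidants, allows up to 0.874 CPM (3 reads).

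In agitated culture most members were moderately expressed. Their mean CPM without antioxidants ran from 8.16 to 265.6, with a median of 34.4; 3 members were under 10 CPM, 39 between 10 and 50, 8 between 50 and 100, and 4 above 100. Against the 10505 genes that passed the filter on low counts, their mean CPM in this group ranked between the 29.3 and 94.3 percentile, with a median of 58.5. All 54 members passed this filter.

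The fall itself was used to choose the members and is given without a test. Without antioxidants, the static minus agitated difference in mean L had a median of -2.82 over the members and ran from -5.61 to -1.83. With antioxidants the median was -2.70 and the range -5.09 to -1.82. In both states 43 members fell by at least 2 on this scale, 14 by at least 3 and 3 by at least 4. As a ratio of mean CPM, the 6 agitated over the 6 static libraries, the median was 11.5-fold and the range 4.27 to 86.5-fold. The limits passed through a continuous range of genes. Without antioxidants the smallest member difference was -1.83 and the nearest gene outside, among those that met the other limits, stood at -1.70. With antioxidants these were -1.82 and -1.74, and for the higher of the static means 2.58 and 2.62.

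Library by library, all 6 static values lay below all 6 agitated values for 44 of the 54 members (81.5%), against 9.72% of all tested genes, and since the same contrast chose them nothing is read from this. Without antioxidants the 3 static libraries lay below the 3 agitated ones for 46 members, where 16.3% of all tested genes did so, and with antioxidants for 53, where 24.4% did. The 10 members that overlapped did so through a single agitated library each, always a replicate 1. In 8 of them it was replicate 1 without antioxidants, where gene1930 had 0.446 CPM (3 reads) and gene14024 had 0.595 CPM (4 reads). In the other 2 it was replicate 1 with antioxidants, where gene954 had 1.26 CPM (8 reads) and gene7832 had 3.48 CPM (22 reads). Of these 4 genes, gene954 is also named by rule and the others were picked after their values were seen.

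gene1249 fell most without antioxidants, and with them it came next after gene4099. In agitated culture it stood at 396, 45.9 and 355 CPM without antioxidants (266 ± 191, SD, n = 3) and at 8.85, 155 and 192 CPM with them (119 ± 96.9). Its static values were 2.33, 2.86 and 3.4 CPM without and 0.801, 1.25 and 2.69 CPM with antioxidants. The groups did not overlap, but the lowest agitated value, 8.85 CPM in antioxidant replicate 1, was only a few CPM above the highest static one. The difference in mean L was -5.61 without and -4.76 with antioxidants.

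gene6195, next by size without antioxidants, was less abundant. It had 59.6, 15.3 and 118 CPM in agitated culture without antioxidants and 4.11, 32.2 and 36.4 CPM with them. In static culture it had 1.46, 1.18 and 0.895 CPM without and 0.801, 1.05 and 1.25 CPM with antioxidants. Static and agitated values did not overlap, and the low agitated libraries were replicate 2 without and replicate 1 with antioxidants, as in gene1249. Its differences were -4.50 and -3.19.

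gene4099 fell most with antioxidants and had another order of libraries. It stood at 3.12, 96.9 and 332 CPM in agitated culture without antioxidants (144 ± 169) and at 329, 133 and 21.7 CPM with them (161 ± 156). Static cultures gave 2.62, 2.69 and 1.25 CPM without and 2.8, 1.25 and 1.97 CPM with antioxidants. Agitated replicate 1 without antioxidants was thus barely above the static libraries, while replicate 1 with antioxidants was among the highest values of any member. The differences were -4.04 and -5.09, and the SD of each agitated group was close to or above its mean.

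**Figure D2:**
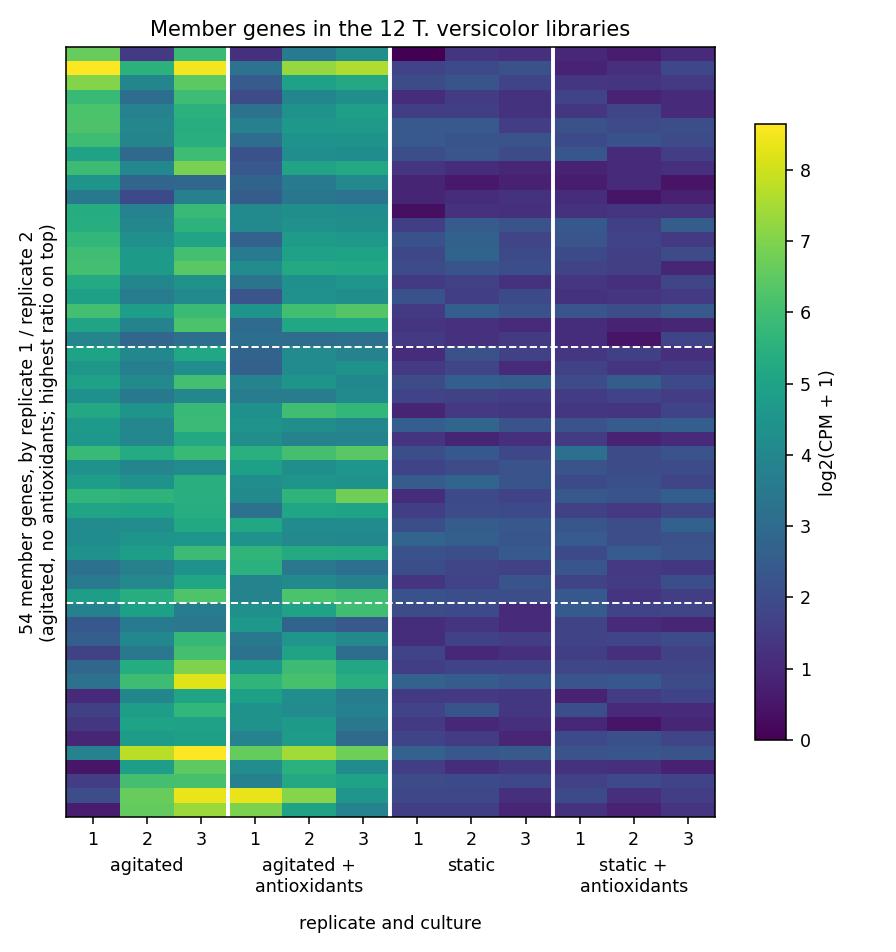
L, log2(CPM + 1), of the 54 members (rows) in the 12 libraries (columns), with rows ordered by the ratio of agitated replicate 1 to replicate 2 without antioxidants and dashed lines at 2-fold ratios (21, 18 and 15 members). Static columns are uniformly dark; in the agitated columns, replicate 1 without antioxidants is bright at the top and dark at the bottom.

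The agitated libraries of most members were spread widely. The rule used the mean L of these libraries, so the choice of members may itself affect this spread, which was not tested. The highest of the 6 agitated values was at least 2 times the lowest in 51 members, at least 4 times in 39, at least 10 times in 20 and at least 20 times in 15, with a median ratio of 5.88. The coefficient of variation within a group had a median of 60.1% over the members in agitated culture without antioxidants and 46.7% with them, against 17.1 and 18.7% over all tested genes. In static culture the medians were 24.0 and 26.7%, against 14.9 and 13.3%. The gene-wise biological coefficient of variation from edgeR had a median of 43.2% in the members, 37.6% in the retained genes and 17.2% in all tested genes. Counting error weighs more on low static values, and its part in these figures was not tested.

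At the extremes of that spread, 2 genes picked after their values were seen bracket the members. gene14024 varied most, with 0.595, 92.5 and 162 CPM in agitated replicates 1 to 3 without antioxidants and 122, 30.7 and 13.3 CPM with them, a 273-fold range. Its static values lay between 0.836 and 2.04 CPM, above that lowest agitated library. gene9129 varied least, with 17.4, 21.3 and 22.4 CPM and 20.1, 15.6 and 15.2 CPM, a 1.48-fold range. It was also the member with the smallest fall without antioxidants, -1.83, and its static values of 3.14 to 6.12 CPM did not overlap with the agitated ones.

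Which agitated library was high or low differed between members in a patterned way. Replicate 3 without antioxidants held the highest of the 6 agitated values in 32 members (59.3%, against 15.4% of all tested genes) and replicate 1 without antioxidants in 13. The lowest value fell in antioxidant replicate 1 for 25 members (46.3%, against 26.8%) and in replicate 1 without antioxidants for 17 (31.5%, against 16.4%). Deep drops, to under 25% of the median of the other 5 agitated libraries, occurred in replicate 1 without antioxidants in 12 members (22.2%, against 1.16%) and in antioxidant replicate 1 in 10 (18.5%, against 0.990%). Much of this was also seen in the 98 retained genes. Of these, 26 (26.5%) and 8 (8.16%) dropped this deeply in the same 2 libraries. Their lowest value fell in replicate 1 without antioxidants in 35 (35.7%) and in antioxidant replicate 1 in 34 (34.7%). Replicate 3 without antioxidants was the highest in 36 (36.7%). These shares are descriptions, since the rule used the same libraries.

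Members were then divided by their level in agitated replicate 1 without antioxidants, a split made after the values were seen and given without a test. Relative to replicate 2 of that group, 21 members were at least 2-fold higher in replicate 1 on the CPM + 1 scale, 15 at least 2-fold lower, and 18 in between. The 21 higher members had medians of 57.2, 14.4 and 57.2 CPM in the 3 libraries without antioxidants and 7.43, 20.1 and 21.9 CPM in those with them. The 15 lower members had medians of 2.23, 29.3 and 66.5 CPM and 20.6, 30.6 and 15.8 CPM. In static culture both sets were low, with medians between 1.46 and 2.40 CPM in every library.

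The same sets also behaved unlike each other in the antioxidant libraries, which the split did not use. All 21 higher members had less in antioxidant replicate 1 than in antioxidant replicate 3, and in 20 of them replicate 1 was the lowest of the 3. Of the 15 lower members, 10 had more in antioxidant replicate 1 than in replicate 3. Replicate 1 was the highest of the 3 antioxidant libraries in only 5 of these 15, and the lowest in 5. Compared with antioxidant replicate 2, most of the 15 had less in replicate 1, with medians of 30.6 CPM in replicate 2 and 20.6 CPM in replicate 1. The direction in this set thus depended on the use of replicate 3, and the correlations and shares that follow use replicate 3 only. Across the 54 members the log2 ratio of replicate 1 to 2 without antioxidants and that of replicate 1 to 3 with antioxidants had a Pearson correlation of -0.68, across genes that share the same 4 libraries and are not independent. Across the 98 retained genes it was -0.48 and across all tested genes -0.30. Among all tested genes the same split gave 304 higher genes, of which 237 (78.0%) had less in antioxidant replicate 1 than 3, and 440 lower genes, of which 301 (68.4%) had more, so the pattern was present outside the members too.

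**Figure D3:**
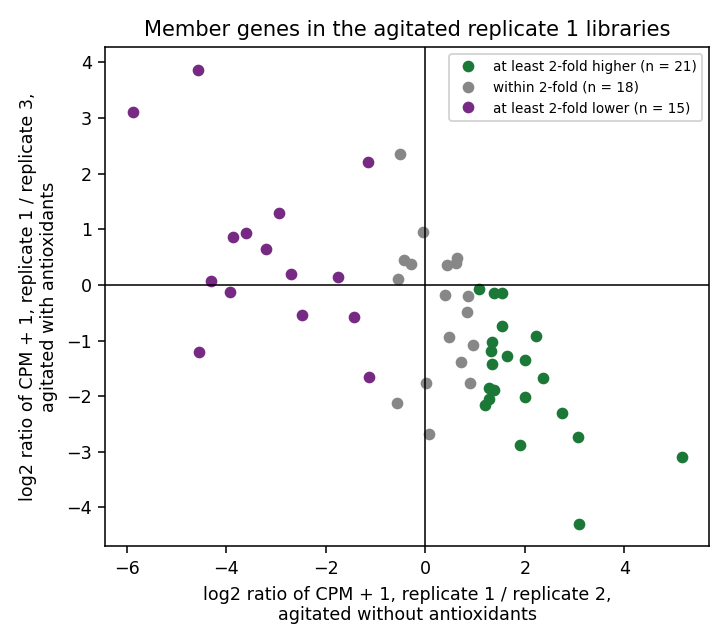
For each of the 54 members, the log2 ratio of CPM + 1 in agitated replicate 1 over replicate 2 without antioxidants (x) and in replicate 1 over replicate 3 with antioxidants (y), coloured by the 2-fold split on the x axis. The 21 members at least 2-fold higher on x all lie below 0 on y, and 10 of the 15 at least 2-fold lower lie above 0.

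In each agitated library a single member gave between 9.36 and 24.2% of the member reads. gene1249 alone gave 19.9% of the member reads in agitated replicate 1 without antioxidants and 11.5% in antioxidant replicate 3. gene4099 gave 24.2% in antioxidant replicate 1. gene9141, noted after its values were seen, led in the 3 other agitated libraries, with 14.4% in replicate 2 and 10.3% in replicate 3 without antioxidants and 9.36% in antioxidant replicate 2. It stood at 13.1, 212 and 397 CPM without antioxidants and 96.6, 174 and 106 CPM with them, all above its static range of 3.58 to 5.54 CPM. In static libraries no member gave more than 5.75% of the member reads.

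Whether the antioxidants changed the members within a culture form was tested with edgeR's quasi-likelihood test over all 10505 genes. The rule did not use this difference, but it used all 4 group means. A gene that antioxidants brought near the static level in agitated culture, or that was high only with them, could not be a member, which limits the effects the members can show. In agitated culture, no member was called at a Benjamini-Hochberg adjusted p under 0.05, where 0.0286% of all tested genes (3) were. At an unadjusted p under 0.05 there were 13 members, 11 lower and 2 higher with antioxidants, against 6.51% of all tested genes in either direction and 3.89% lower. DESeq2 called no member (0.181% of all tested genes) and had 14 at an unadjusted p under 0.05 (5.7%). Likewise limma-voom called none (0.019%) and had 11 (6.33%). The estimate of spread in these fits also drew on the static libraries, in which the members varied less. With only the 2 agitated groups in the edgeR fit, 1 member reached an unadjusted p under 0.05 (3.38%). The log2 fold changes had a median of -0.56 over the members and 0.01 over all tested genes. They were negative in 42 members (77.8%, against 48.9% of all tested genes) and positive in 12. In no member did the 3 antioxidant libraries lie all below or all above the 3 others, which happened in 4.65% and 3.58% of all tested genes.

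The size of this tendency depended on which libraries were kept. Without agitated replicate 3 of the cultures without antioxidants, which held the highest value in 32 members, the median log2 fold change was -0.12, with 28 members negative and 3 at an unadjusted p under 0.05 (5.39% of all tested genes). Without antioxidant replicate 1 the median was -0.44 with 5 members at an unadjusted p under 0.05 (7.33%), and without antioxidant replicate 3 it was -0.58 with 8 (7.65%). It was larger without replicate 1 of the cultures without antioxidants, -0.74 with 16 members (5.35%), and without replicate 2, -0.69 with 20 (11.3%). On the L scale, where each library weighs equally, the median difference was -0.17, and it ran from -0.66 without replicate 1 to -0.10 without replicate 3 of the cultures without antioxidants. A median of -0.19 came from limma-voom. Without agitated replicate 2 of that group, edgeR called 2 members lower, gene6512 at -1.48 (adjusted p = 0.0193) and gene9647 at -1.27 (adjusted p = 0.0473), where 0.234% of all tested genes were called lower. Without both agitated replicate 1 libraries, edgeR called gene12783 at -1.01 (adjusted p = 0.0126) and gene14024 at -2.50 (adjusted p = 0.0352), where 0.283% were called lower. Those 4 genes are named because of these calls.

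The data do not exclude sizeable antioxidant effects on single members. The 95% intervals of the agitated log2 fold changes had a median half-width of 1.06, from 0.41 to 2.67, and for 6 members the whole interval lay within -1 and 1. The largest rise in agitated culture was that of gene8450, which had 12.9, 29.3 and 11.4 CPM without and 19.3, 30.2 and 63.2 CPM with antioxidants. The groups overlapped, and the highest value came from antioxidant replicate 3. Its log2 fold change was 1.08 (SE 0.46, 95% interval 0.07 to 2.10, edgeR adjusted p = 0.739). It was 0.52 without antioxidant replicate 3 and 1.62 without replicate 2 of the cultures without antioxidants.

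The largest fall was that of gene954, from 97.5, 1.78 and 58.7 CPM to 1.26, 11.0 and 18.4 CPM. The groups overlapped, since replicate 2 without antioxidants lay below antioxidant replicates 2 and 3. Its log2 fold change was -2.36 (SE 1.09, 95% interval -4.82 to 0.10, edgeR adjusted p = 0.771), and -1.06 without both agitated replicate 1 libraries.

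In static culture no member was called, where 0.419% of all tested genes (44) were, and none reached an unadjusted p under 0.05, against 5.57%. DESeq2 called none (0.942% of all tested genes) and had 1 at an unadjusted p under 0.05 (4.53%), and limma-voom called none (0.466%) and had 0 (5.37%). The filter on low counts passed some members only through the agitated libraries. With the static groups alone 37 of the 54 were tested, none was called by edgeR and 2 reached an unadjusted p under 0.05, against 10.2% of all genes tested there. The rule kept both static means under its ceiling, which limits how far apart they can be. The median log2 fold change was 0.04 over the members and -0.01 over all tested genes. Of the members, 29 were positive and 25 negative (46.3%, against 51.9% of all tested genes). Scaling by library totals alone moved the median of all genes by -0.17 in this comparison, and the members then had a median of -0.14 with 36 negative. On CPM by library totals, the 3 antioxidant libraries lay below the 3 others for 7 members (21.2% of all tested genes) and above them for 5 (3.41%). The intervals were wide, with a median half-width of 1.70. Low counts and the wide spread of the agitated libraries, which share the gene-wise estimate of spread, can both widen them. Their parts were not tested.

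gene7788 had the largest static rise, from 1.17, 2.86 and 2.33 CPM to 4.20, 3.76 and 5.02 CPM. Every antioxidant library was above every library without, by a log2 fold change of 1.13 (SE 0.76, 95% interval -0.55 to 2.81, edgeR adjusted p = 1.00). gene13503 had the largest static fall, from 2.91, 3.70 and 3.22 CPM to 2.40, 2.09 and 0.896 CPM. Its groups did not overlap either, and its log2 fold change was -0.73 (SE 0.67, 95% interval -2.21 to 0.75, edgeR adjusted p = 1.00). It was -0.38 without static antioxidant replicate 3.

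**Figure D4:**
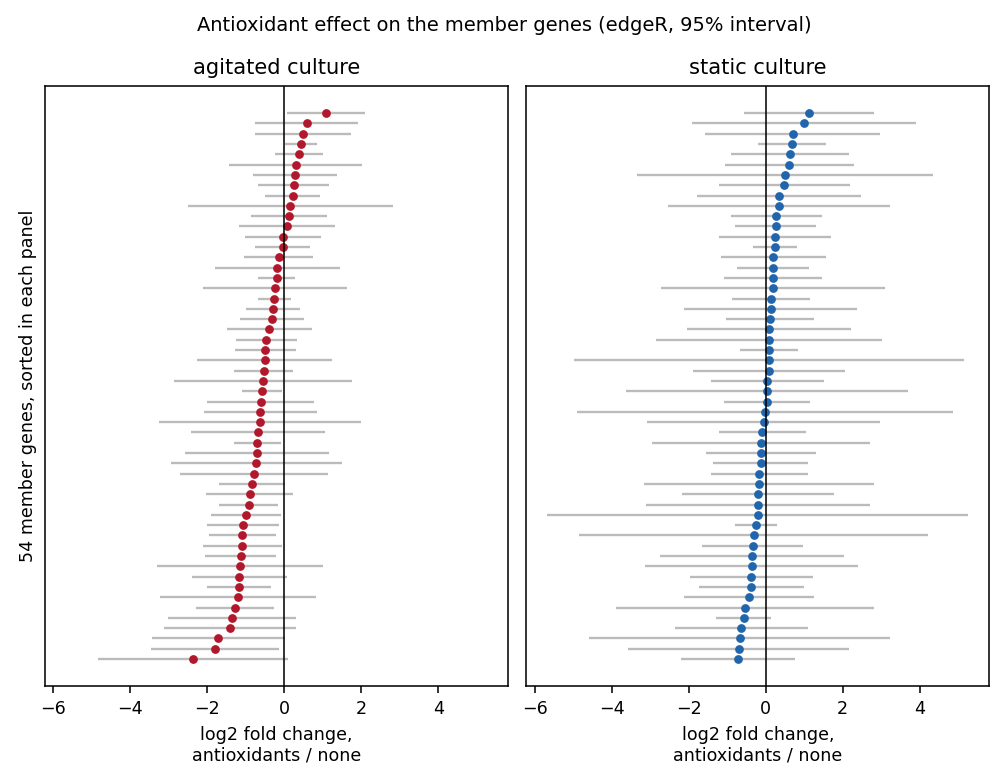
Log2 fold change with antioxidants over without, with its 95% interval (edgeR), for the 54 members in agitated (left) and static (right) culture, sorted within each panel. In agitated culture 42 of the 54 points lie below 0 and in static culture 25 do, where 48.9 and 51.9% of all tested genes did. No member is called in either panel.

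The difference between the static and the agitated antioxidant effect was also tested directly. It equals the difference between the falls with and without antioxidants, and the rule limited both of them. Static effects of opposite direction in the 2 antioxidant states therefore cannot occur among members. Some members also passed the filter on low counts only through the agitated libraries. The counts are given only beside the shares of all tested genes. edgeR called no member, where 0.143% of all tested genes (15) were called, and none reached an unadjusted p under 0.05, against 5.21%. DESeq2 called none (0.59% of all tested genes) and had 2 at an unadjusted p under 0.05 (4.46%), and limma-voom called none (0.114%) and had 0 (4.9%). The median difference was 0.49 over the members and -0.01 over all tested genes, and the intervals had a median half-width of 2.01. Of the members, 43 were positive and 11 negative (20.4%, against 51.4% of all tested genes). Without agitated replicate 3 of the cultures without antioxidants the median was 0.06. Without replicate 1 of that group 4 members reached an unadjusted p under 0.05 in edgeR (5.37% of all tested genes), and without replicate 2, 9 did (7.37%). The most positive was gene954 at 2.34 (SE 2.57, 95% interval -3.46 to 8.14, edgeR adjusted p = 0.970), or 1.03 without both agitated replicate 1 libraries.

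At the other end, gene2718 stood at -0.50 (SE 1.08, 95% interval -2.91 to 1.91, edgeR adjusted p = 0.978). It had 8.62, 12.6 and 20.8 CPM in agitated culture without antioxidants and 44.7, 10.0 and 8.01 CPM with them, and 3.21, 2.52 and 2.15 against 4.00, 1.67 and 1.61 CPM in static culture. A single library, antioxidant replicate 1, lay above all others in agitated culture, and without it the difference was 0.69.

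Some members had neighbouring running numbers. Whether the numbers follow genome position is not given in the sources used here. The next number up or down was also a member for 4 of the 54 (7.41%), against 0.710% of the other 14516 genes listed. Within 3 numbers these shares were 14.8 and 2.07%, and within 10 numbers 20.4 and 6.52%. The genes of this paragraph and the next were picked by number after the members were known. gene7663 and gene7664 moved alike, with 61.1, 14.4 and 42.0 against 72.9, 13.3 and 46.1 CPM in agitated culture without antioxidants and 7.43, 20.1 and 20.5 against 8.54, 20.8 and 29.4 CPM with them. gene14130 and gene14131 differed in level, at 6.05 to 21 and 39.1 to 55.7 CPM without antioxidants, and within the agitated antioxidant group both were highest in replicate 3, at 15.7 and 84.3 CPM. If neighbouring genes overlap, reads may be shared between them, which was not tested.

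The 3 members closest together by number were gene949, gene954 and gene957, in a run of 9 numbers. The numbers 950, 951 and 952 had no reads in any library, and the 3 other genes had reads. All 6 genes with reads were highest of the 6 agitated libraries in replicate 1 without antioxidants, lowest in replicate 2 within that group, and lowest in replicate 1 within the antioxidant group. gene957, for example, had 131, 14.8 and 87.1 CPM without antioxidants and 4.59, 29.8 and 36.2 CPM with them, against 1.46 to 3.70 CPM in static culture.

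The strongest signal in that run came from gene955, which was not a member because its static level was above the ceiling. It stood at 614, 50.2 and 517 CPM in agitated culture without antioxidants and 7.43, 113 and 167 CPM with them. Its static values were 13.4, 15.1 and 8.23 CPM without and 10.2, 7.11 and 12.9 CPM with antioxidants. Antioxidant replicate 1 lay within the static range, and the other 5 agitated libraries above it. gene953 and gene956 fell by less, with differences in mean L of -2.07 and -1.97 without and -1.08 and -1.28 with antioxidants, while the flanking gene948 and gene958 stood at -0.43 and 0.12 without antioxidants.

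**Figure D5:**
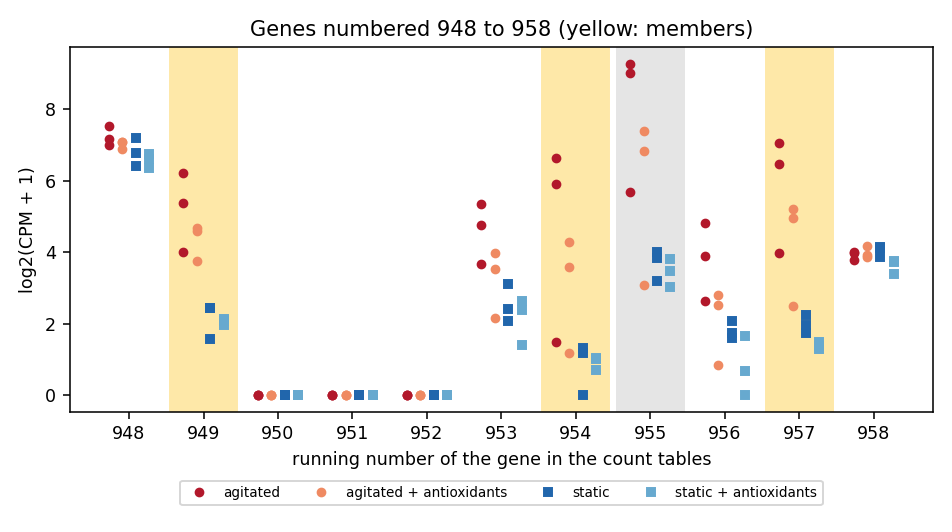
L, log2(CPM + 1), of the genes numbered 948 to 958 in each of the 12 libraries, with members shaded yellow and the retained gene955 grey. Circles are agitated and squares static libraries; 950 to 952 lie at 0, and the members' agitated points reach from 1.26 CPM (gene954) to 131 CPM (gene957).

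Against the retained genes, which met the same limits on the fall, the members differed in level by construction. The retained genes had median group means of 153.8 and 127.4 CPM in agitated culture without and with antioxidants and 15.8 and 15.5 CPM in static culture, against 34.4 and 19.5 CPM and 2.40 and 2.08 CPM in the members. Their median difference in L was -2.39 without and -2.40 with antioxidants, against -2.82 and -2.70. They took 2.95 to 5.28% of the gene reads in agitated libraries, far more than the members, and 0.367 to 0.474% in static ones. With antioxidants in agitated culture, 65 of the 98 retained genes had a negative log2 fold change (edgeR), with a median of -0.21. In the members these were 42 of 54 and -0.56, and 48.9% of all tested genes were negative.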

How the data were processed

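The tables hold unnormalized counts of reads for every gene, as deposited by the authors, in a separate file for each library. HTSeq, Bowtie2, Bowtie and FastQC appear in the submitters' processing notes without version numbers. The sources used here give no genome build, annotation or strand setting, so overlapping, antisense and near-identical genes are uncertain. The library kit for total RNA preserves strand, per the labels' protocols. HTSeq's 5 summary rows were kept out of totals and tests.

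Groups and replicates came from the library titles. CPM and L used library totals. Antioxidant effects were tested with edgeR 4.0.16 (limma 3.58.1, R 4.3.3) on the counts of all 12 libraries, with 4 group means, filterByExpr, TMM, a robust quasi-likelihood fit and Benjamini-Hochberg adjustment over the 10505 genes kept. Intervals are 95% and cover the spread between libraries, with a gene-wise estimate shared by all 4 groups. The SE was derived as the absolute log2 fold change over the square root of the test's F statistic. It is therefore unreliable for changes near 0. For gene4118, picked after its values were seen, it was 0.24 and 0.33 for the agitated and static effects. For their difference of 0.005 it was 1.05. The members' median coefficient of variation was 60.1 and 46.7% in the agitated groups and 24.0 and 26.7% in the static ones. For members, the shared estimate may thus be too small in agitated and too large in static comparisons, which was not tested. In simulated data the procedure found 64, 55 and 30 of 100 2-fold changes in the agitated, static and difference comparisons. Of 100 4-fold changes it found 97, 92 and 93. The changed genes were drawn from tested genes at large, without those of low level. The median biological coefficient of variation was 17.2% over all tested genes and 43.2% in the members, so these rates need not hold for members. DESeq2 1.42.0, limma-voom, other scalings and filters, a replicate block and leaving out libraries were alternatives.

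The members, the lists and the rule for named genes were chosen with earlier results of these data known. Named by rule were the 2 largest falls of L in each antioxidant state and, since no member was called, the highest and lowest log2 fold change of each antioxidant comparison. Libraries of the other fungus were not used.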

Additional observations from a re-analysis of the deposited data

How the results depend on the processing

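Leaving out any 1 library left 46 to 64 members, 44 to 54 of them among the 54; TMM gave 57, DESeq2 size factors 56, a pseudocount of 0.5 gave 77, a static ceiling of 2.2 gave 41 and a fall of at least 2.2 gave 34. The median static minus agitated L difference stayed between -3.19 and -2.63 without and between -2.97 and -2.47 with antioxidants when 1 library was left out. The number of members called for antioxidants in agitated culture was 0 to 2 when 1 library was left out, with 2 without agitated replicate 2, and 2 without both agitated replicate 1 libraries, an alternative chosen after seeing the data. It was 0 in static culture and for the difference under each alternative run. The difference for gene2718 ran from -1.05 to 0.69 over left-out libraries and was 0.97 without both agitated replicate 1 libraries; the cause was not tested. Scaling by library totals moved the median gene of the difference by -0.15.

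Same-number libraries of the agitated groups correlated in their deviations from the group means at -0.17 to -0.01. Those of the static groups did so at -0.30 to 0.10, so the numbers are not taken as pairs. Unlike numbers ranged from -0.31 to 0.31 in the agitated and from -0.19 to 0.26 in the static groups. Agitated replicates 1, 2 and 3 without antioxidants reached 0.29, 0.31 and 0.27 with antioxidant replicates 3, 1 and 2. Whether this reflects a structure shared across the groups was not tested, and the tests do not model one. With the replicate number as a replicate block, 0 members were called in each comparison, and 1, 37 and 11 of all tested genes; the members' agitated median was then -0.38, with 8 at an unadjusted p under 0.05 (5.53% of all tested genes). Depth limits the static values most, where 133 of 324 were under 10 reads.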
